A study of Mus musculus with 6 samples.

Results

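The Notch signaling genes examined here were 10 of the 54532 genes in the count table: the receptors Notch1, Notch2, Notch3 and Notch4, the ligands Jag1 and Jag2, the nuclear effector Rbpj, and the target genes Hes1, Hey1 and Heyl. Each row was taken from the table by its gene name. RNA was sequenced from 2 cell populations sorted from cartilage of Gli1-CreERT2; tdTomato mice on the C57BL/6 background, which received tamoxifen at 1 month of age and were killed 1 day later. The tamoxifen-dependent Cre is driven by the Gli1 locus, and its recombination makes a cell and its progeny express tdTomato, a red fluorescent protein. tdTomato+ cells (Gli1+, 3 libraries) were compared with tdTomato- cells (Gli1-, 3 libraries), after cells carrying the blood and vessel markers CD45, CD31 and Ter119 had been gated out of both. Both populations carried the same alleles and received the same tamoxifen, and cells that expressed Gli1 but escaped recombination would fall into the Gli1- gate. The sample labels name growth plate as the tissue and the study's results text names costal cartilage.

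Notch receptors are cut after they bind a ligand on a neighboring cell, and the released intracellular domain joins the DNA-binding protein Rbpj and Mastermind coactivators to switch on target genes. Hes and Hey proteins, the classical products of those targets, are repressors of transcription. In cartilage the pathway is best known for restraining the early steps of chondrocyte differentiation and for its part in the turn to hypertrophy.

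The 6 libraries held between 17114101 and 18602482 counted reads. The transcript of Gli1, which drives the sorting label, had a level of 4.55, 6.39 and 7.98 counts per 1000000 reads after TMM normalization (CPM) in the Gli1+ libraries and of 0.724, 1.26 and 2.43 CPM in the Gli1- libraries, so the populations did not overlap. Of the 14801 genes tested below, 598 were higher in Gli1+ without overlap. All 10 chondrocyte markers were detected in every library. The 10 fibroblast markers summed to 1668 to 3946 CPM in Gli1+ and to 2221 to 9698 CPM in Gli1-, so the populations overlapped. Of these 10, 1 had a log2 fold change (Gli1+ against Gli1-) above 0, with a median of -1.27, and 0 were called in the test described below. The first Gli1+ library stood apart: 15000 genes were detected in it against 20666 to 23360 in the others, and 22.8% of the genes that averaged 20 to 100 counts elsewhere were at 0 there, against 0.230% to 2.29% in the other libraries. Leukocyte markers summed to 3426 CPM in the first Gli1- library and to at most 185 CPM in the others. Of the 8 leukocyte markers tested, 1 had a log2FC above 0, with a median of -4.96. By edgeR 0 of them were called, and 4 had an unadjusted p under 0.05.

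Levels per kilobase of gene length (CPM per kb) ordered the members as Hes1, Notch2, Rbpj, Jag1, Notch1, Hey1, Heyl, Notch3, Jag2 and Notch4. The mean over the 6 libraries was 27.4 ± 20.9 CPM per kb (SD) for Hes1 and 24.7 ± 16.7 for Notch2, higher than the means of 88.3% and 86.9% of the genes tested. Rbpj followed at 12.4 ± 3.50 CPM per kb and Jag1 at 9.85 ± 6.68. Notch1 sat in the middle of all genes, with 2.96 ± 2.77 CPM per kb and 44.9% of genes below it. Hey1 had 0.848 ± 0.693 and Heyl 0.422 ± 0.189 CPM per kb. The 3 lowest members, Notch3, Jag2 and Notch4, averaged 0.174, 0.117 and 0.0798 CPM per kb. No member exceeded the next in this order in all 6 libraries. Hes1 exceeded Notch2 in 2 of 6, both of them replicate 2, and the other neighbors were ordered this way in 4 or 5 of 6.

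**Figure D1:**
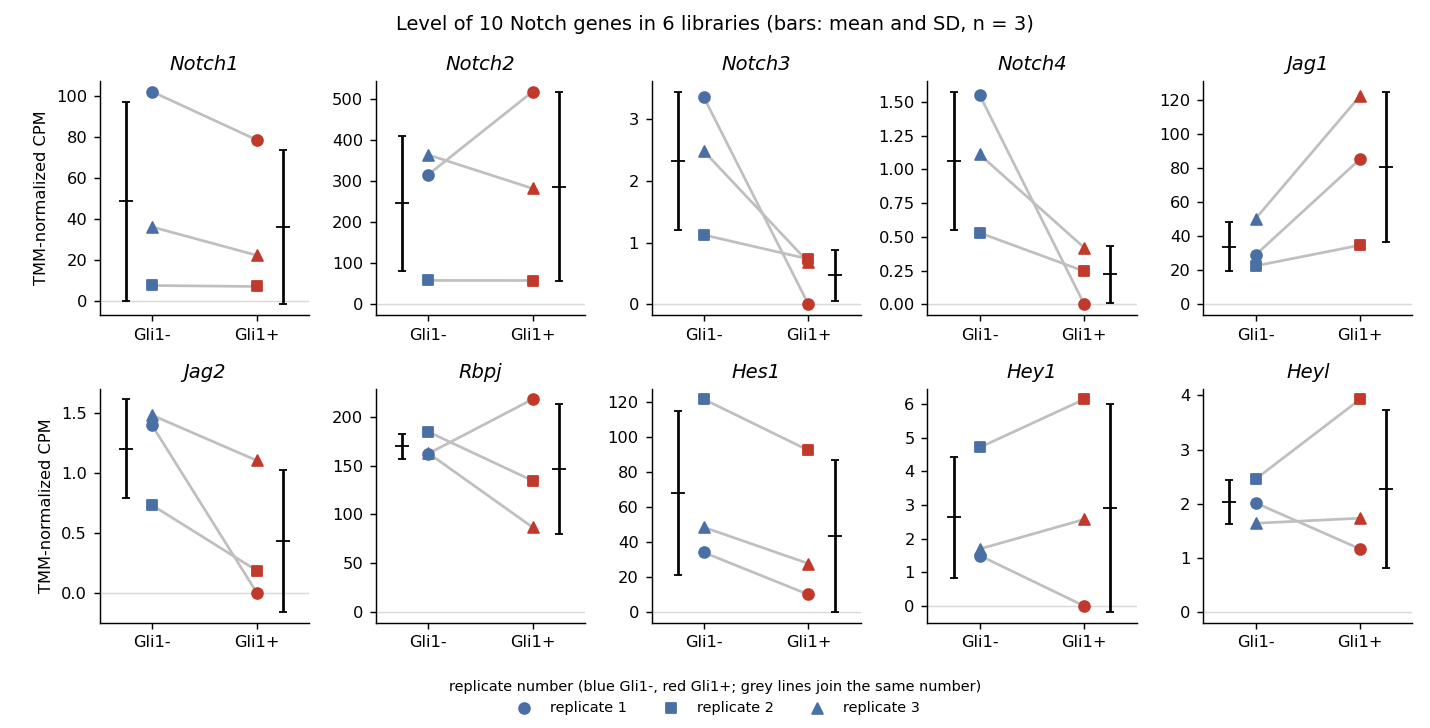
TMM-normalized CPM (vertical axis, 1 panel per gene) of the 10 Notch genes in the Gli1- libraries (blue) and the Gli1+ libraries (red); grey lines join libraries with the same replicate number, and bars give the mean and SD of 3 libraries. Jag1 was higher in Gli1+ in all 3 joined pairs, Notch3 and Notch4 showed no overlap between populations, and the spread between replicates of Notch1, Notch2 and Hes1 exceeded the distance between populations.

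Promoter sequence was read from RefSeq on GRCm38.p6, which had 300-base windows around annotated starts for 7 of the 10 members (8 windows, with 2 overlapping ones for Rbpj) and none for Hes1, Hey1 and Heyl. Both strands were searched for the core letters bound by Rbpj (TGGGAA), for its longer form that contains the core (GTGGGAA), for the site of the Gli factors (GACCACCCA) and for the N-box bound by Hes repressors (CACNAG). The bases upstream of an annotated start (for Rbpj, one inside the span of the gene) are shown for the most abundant receptor, for the ligand that was higher in Gli1+ in each numbered pair, and for the one member whose windows held the Rbpj core. Capitals mark a match, an N-box on the opposite strand in Notch2 and an Rbpj core in Rbpj, and the Jag1 stretch held none. The stretches are chr3:98013288-98013526 (plus strand) for Notch2, chr2:137116645-137116770 (minus strand) for Jag1 and chr5:53590096-53590213 (plus strand) for Rbpj.
Notch2: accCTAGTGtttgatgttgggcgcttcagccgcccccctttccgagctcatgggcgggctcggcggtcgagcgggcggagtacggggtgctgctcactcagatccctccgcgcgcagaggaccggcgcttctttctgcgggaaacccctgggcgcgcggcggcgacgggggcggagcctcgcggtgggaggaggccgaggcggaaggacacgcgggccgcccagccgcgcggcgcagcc
Jag1: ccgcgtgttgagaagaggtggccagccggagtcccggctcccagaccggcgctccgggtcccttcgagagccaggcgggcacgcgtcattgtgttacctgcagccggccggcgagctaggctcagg
Rbpj: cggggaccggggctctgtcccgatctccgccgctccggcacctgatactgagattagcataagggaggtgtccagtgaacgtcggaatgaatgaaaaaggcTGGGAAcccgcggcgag
The Rbpj core was present in 1 of the 7 members and in 25.6% of all 32851 windows of this length. The longer form and the Gli site were in none of the 7, and in 6.38% and 0.253% of all windows. The N-box was in 3 members (Notch1, Notch2 and Notch3) and in 42.5% of all windows. These are matches of letters in a window, and an absent match says only that the letters are not there.

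The question put to the count data was which of these genes differed between Gli1+ and Gli1- cells. By edgeR's quasi-likelihood test, 0 of the 9 members that passed the filter on low counts were called at a Benjamini-Hochberg adjusted p under 0.05 and a log2 fold change (log2FC, Gli1+ against Gli1-) beyond 1 in either direction, and 0 of all 14801 genes tested were called (0%). Each of the 9 had an adjusted p of 0.9999. Gli1, the gene behind the sort, was not called either, at a log2FC of 2.09 ± 0.68 (SE, edgeR unadjusted p = 0.0152, adjusted p = 0.9999). A member not called here is therefore not shown to be equal in the populations. At an unadjusted p under 0.05, edgeR passed 0 of the 9 members and 514 of all genes (3.47%). DESeq2 called 0 members and 30 genes (0.203%), and limma-voom called 0 members. The paper, with the same thresholds, did report genes that differed between the populations, unlike the edgeR fit here. It does not name the test it used. Of the 9 members, 4 had a log2FC above 0 and 5 below, with a median of -0.22 beside 0.00 for all genes, of which 50.1% were above 0. Notch4 did not pass the filter.

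Libraries of the 2 populations carry replicate numbers 1 to 3. The paper describes the comparison as one within animals, without saying which libraries share an animal. The first fit, without a block, makes no use of such pairs. Libraries with the same number correlated in their deviations, clearly for number 2 (r = 0.720), less for 3 (0.471) and weakly for 1 (0.223). A fit with the number as a block, planned because the libraries are numbered in each population, was set beside the first one. In that fit edgeR again called 0 members and 0 genes, and 2 of the 9 members, Jag1 and Hes1, had an unadjusted p under 0.05, as did 8.61% of all genes, 3.36% higher in Gli1+ as Jag1 was and 5.25% lower as Hes1 was. DESeq2 with the block called 1 member, Jag1, and 2.89% of all genes. Among the genes, 0.777% were called as higher in Gli1+, the direction of Jag1. With the block, Gli1 had an adjusted p of 0.381 in edgeR and of 0.0189 in DESeq2. In bulk RNA from sorted cells, fewer cells of a kind and less RNA per cell cannot be told apart.

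**Figure D2:**
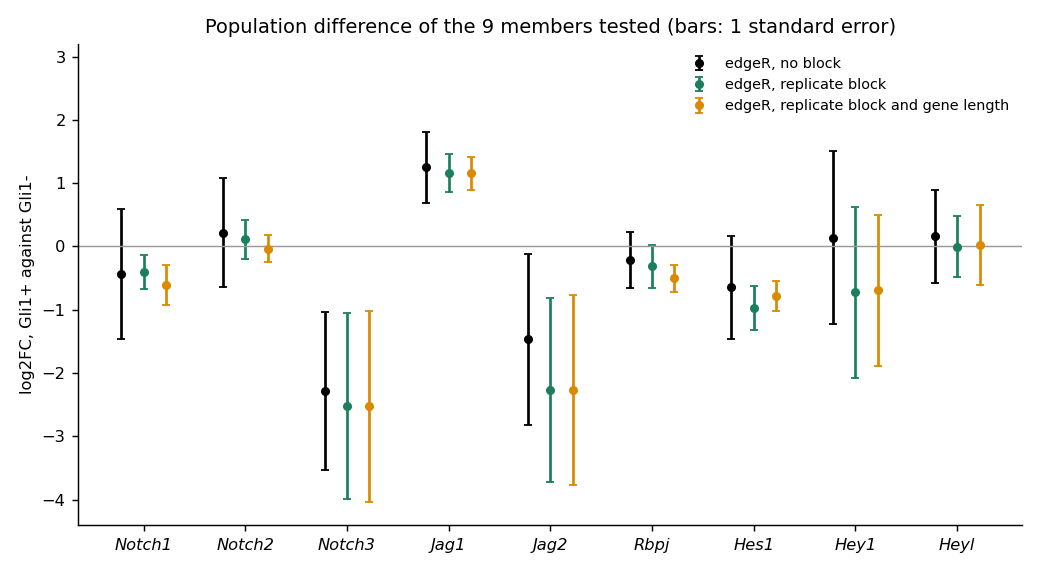
Log2FC of Gli1+ against Gli1- (vertical axis) for the 9 members tested with edgeR, without a block (black), with the replicate number as a block (green), and with the block and a correction for gene length (orange); bars give 1 standard error. Jag1 stayed between 1.16 and 1.25, with a standard error of 0.56 without the block and of 0.30 with it.

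Among the receptors, Notch2 (ENSMUSG00000027878, chr3:98013527-98150361, plus strand, mm10) made up most of the RNA. Its level was 518, 58.3 and 283 CPM in the Gli1+ libraries 1 to 3 and 316, 58.5 and 365 CPM in the Gli1- libraries. The populations overlapped throughout, and both replicate 2 libraries were several times lower than the other 4. Its log2FC was 0.22 ± 0.87 (SE, edgeR adjusted p = 0.9999). The sign turned without the first Gli1+ library, to -0.56, and with the gene length correction, to -0.047. Notch2 took 89.7%, 89.8% and 93.9% of the receptor level per kb in Gli1+ and 79.0%, 88.1% and 91.9% in Gli1-. The mean share was 91.1% ± 2.40 against 86.3% ± 6.62 (SD, n = 3 each, two-sided exact permutation p = 0.4, ignoring the pairs). The share was higher in Gli1+ in all 3 numbered pairs. The difference of the means, 4.80 percentage points, was 1.14 without the first Gli1- library, which was high in leukocyte markers.

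Notch1 (ENSMUSG00000026923, chr2:26457903-26516663, minus strand), a receptor closely related to Notch2, was measured at 78.5, 7.0 and 22.2 CPM in Gli1+ and at 102, 7.49 and 36.0 CPM in Gli1-. It was lower in the Gli1+ library of each numbered pair, by a Gli1+ to Gli1- ratio of 0.769, 0.934 and 0.617, while the 2 populations overlapped. The log2FC was -0.43 ± 1.03 (SE, edgeR adjusted p = 0.9999) and -0.40 ± 0.27 with the block (adjusted p = 0.722). Without the first Gli1- library, which was high in leukocyte markers, the log2FC was 0.71, and without the second Gli1+ library 0.035. The part of leukocytes in the Notch1 values was not tested. Per kb, the ratio of Notch2 to Notch1 ran from 4.09 in the first Gli1- library to 16.8 in the third Gli1+ library, and Notch2 was the higher of the pair in all 6.

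Notch3 (ENSMUSG00000038146, chr17:32120820-32166880, minus strand), a receptor best known from mural cells of vessels, was scarce. It had 0, 12 and 13 counts in the Gli1+ libraries and 65, 17 and 47 counts in the Gli1- libraries, or 0, 0.737 and 0.683 CPM against 3.36, 1.13 and 2.49 CPM. The count of 0 allows up to 0.159 CPM by counting error alone. Each Gli1+ library lay below each Gli1- library, and the log2FC was -2.29 ± 1.25 (SE, edgeR adjusted p = 0.9999, unadjusted p = 0.103). Without the first Gli1+ library, in which many moderately expressed genes were at 0, it was -1.74 ± 0.79 (adjusted p = 0.9999).

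Notch4 (ENSMUSG00000015468, chr17:34564268-34588503, plus strand), known mainly from endothelium, had 0, 4 and 8 counts in Gli1+ and 30, 8 and 21 counts in Gli1-. In CPM these were 0, 0.246 and 0.420 against 1.55, 0.530 and 1.11, again with no overlap, though by library totals alone the populations did overlap. In the fit without a filter its log2FC was -2.26 ± 1.54 (SE, edgeR adjusted p = 0.925). Notch3 was thus the only 1 of the 9 tested members whose populations did not overlap, where 8.49% of all genes did not and 4.45% were without overlap and lower in Gli1+. The 10 endothelial markers summed to 14.6 to 20.5 CPM in Gli1+ and to 45.9 to 88.8 CPM in Gli1-, mostly Erg, and without Erg to 4.73 to 7.09 and 6.29 to 26.8 CPM. Of them, 5, 2 and 1 were at 0 in the 3 Gli1+ libraries, Cdh5 and Kdr among those at 0 in the first, and 0 were at 0 in each Gli1- library. The 10 mural markers, mostly Cspg4, summed to 602 to 1005 CPM in Gli1+ and to 341 to 801 CPM in Gli1-, so the populations overlapped. Mural markers at 0 numbered 3, 1 and 1 in the Gli1+ libraries 1 to 3, and 0 in each Gli1- library. Of the 8 mural markers tested, 4 had a log2FC above 0, with a median of 0.0031, and 0 were called by edgeR (1 at an unadjusted p under 0.05). Of the 6 endothelial markers tested, 0 had a log2FC above 0, with a median of -1.57, and 0 were called by edgeR (1 at an unadjusted p under 0.05). Their part in the Notch3 and Notch4 values was not tested.

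**Figure D3:**
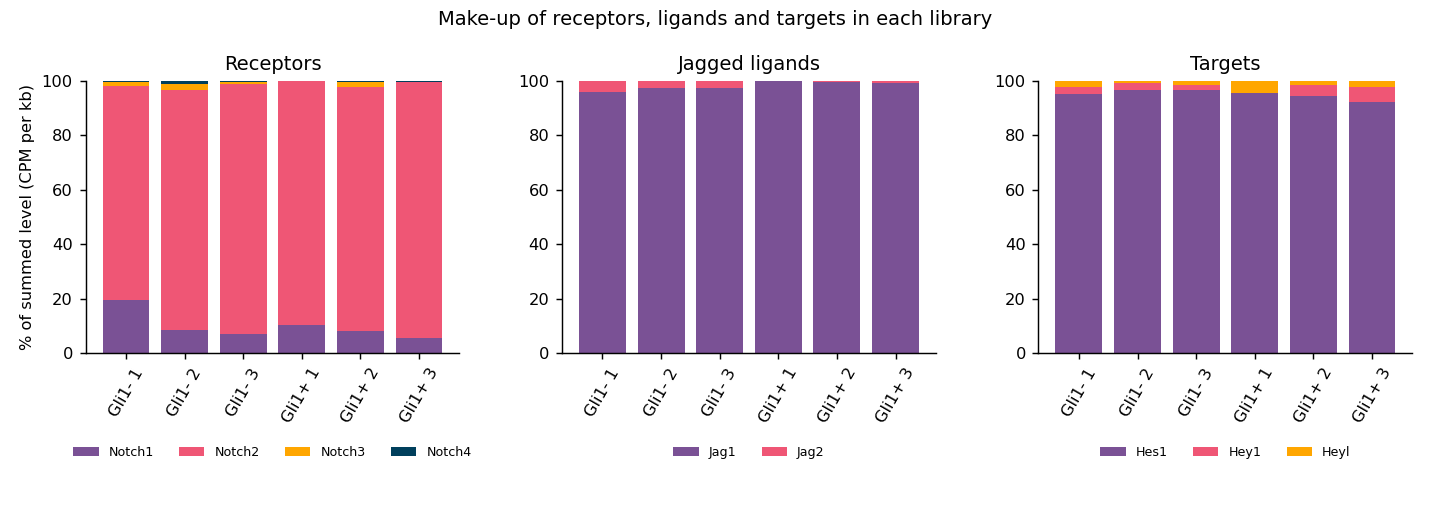
Share (vertical axis, % of the summed CPM per kb) of each gene among the 4 receptors, the 2 Jagged ligands and the 3 targets, in each of the 6 libraries (bars). Notch2 made up 79.0% to 93.9% of the receptors, Jag1 96.1% to 100% of the ligands and Hes1 92.4% to 96.9% of the targets.

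Of the ligands, Jag1 (ENSMUSG00000027276, chr2:137081456-137116644, minus strand) was the abundant one. It had 1612, 566 and 2330 counts in the Gli1+ libraries and 561, 341 and 950 counts in the Gli1- libraries. In CPM these were 85.3, 34.8 and 122 against 29.0, 22.6 and 50.3. The second Gli1+ library lay within the Gli1- range, so the populations overlapped, but in each numbered pair the Gli1+ library was the higher, by 2.94-fold, 1.54-fold and 2.43-fold. The mean was 80.8 ± 44.0 CPM in Gli1+ and 34.0 ± 14.5 CPM in Gli1- (SD, n = 3 each).

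The log2FC of Jag1 was 1.25 ± 0.56 (SE, edgeR unadjusted p = 0.0542, adjusted p = 0.9999). With the replicate block it was 1.16 ± 0.30 (edgeR unadjusted p = 0.00978, adjusted p = 0.424). DESeq2 with the block gave 1.14 ± 0.36 and an adjusted p of 0.0490, just under the threshold, while limma-voom with the block gave an adjusted p of 0.247. Correction for gene length with the block left the log2FC at 1.16 (edgeR adjusted p = 0.218). Over the 20 alternatives to the first fit it ranged from 0.81 to 1.64, above 0 in each. Of the 9 members, Jag1 alone was higher in Gli1+ in all 3 numbered pairs, as were 17.6% of all genes.

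Jag2 (ENSMUSG00000002799, chr12:112907819-112929776, minus strand), the second Jagged ligand, was near the limit of detection, with 0, 3 and 21 counts in Gli1+ and 27, 11 and 28 counts in Gli1-. It was lower in Gli1+ within each pair although the populations overlapped in CPM, with 0, 0.184 and 1.10 against 1.40, 0.730 and 1.48. Its log2FC was -1.47 ± 1.35 (SE, edgeR adjusted p = 0.9999) and -2.27 ± 1.46 with the block (adjusted p = 0.709). With 1 library left out it ran from -3.65, without the third Gli1+ library, to -0.91, without the first. Of the summed Jagged level per kb, Jag1 took 100%, 99.6% and 99.3% in Gli1+ and 96.1%, 97.4% and 97.6% in Gli1-. The populations did not overlap in this share, and its mean was 2.57 percentage points higher in Gli1+ (two-sided exact permutation p = 0.1, the smallest that 3 against 3 libraries allow). The Jag2 counts behind it were at most 28 per library. The share of 100% rests on the Jag2 count of 0 in the first Gli1+ library, in which many moderately expressed genes were at 0.

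Rbpj (ENSMUSG00000039191, chr5:53466152-53657362, plus strand), the DNA-binding protein that all 4 receptors share, was the steadiest of the abundant members. It was measured at 218, 135 and 86.8 CPM in Gli1+ and at 162, 185 and 163 CPM in Gli1-. The Gli1- libraries lay close together, inside the wider Gli1+ range, and the log2FC was -0.22 ± 0.44 (SE, edgeR adjusted p = 0.9999). Without the third Gli1+ library it was 0.042. A processed copy of the gene, Rbpj-ps3, was counted separately at 25 to 98 reads per library, and how reads shared by both were assigned is not known.

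The target Hes1 (ENSMUSG00000022528, chr16:30064384-30067796, plus strand) encodes the repressor most often used as a readout of the pathway. It had 193, 1505 and 530 counts in the Gli1+ libraries and 661, 1833 and 918 counts in the Gli1- libraries, which gave 10.2, 92.4 and 27.8 CPM against 34.2, 122 and 48.6 CPM. Both replicate 2 libraries were the highest of their population, and within each pair the Gli1+ library was the lower, at 0.299, 0.760 and 0.573 of the Gli1- level. The log2FC was -0.65 ± 0.81 (SE, edgeR adjusted p = 0.9999). With the block it was -0.97 ± 0.35 (edgeR unadjusted p = 0.0346, adjusted p = 0.543), and with the block and the length correction -0.78 ± 0.24 (edgeR adjusted p = 0.317). Without the first Gli1+ library the log2FC without a block was -0.20, and without the second Gli1- library 0.055. Hes1 was 1 of 4 tested members, with Notch1, Notch3 and Jag2, that were lower in Gli1+ in all 3 pairs, where 19.8% of all genes were. The untested Notch4 was lower in all 3 pairs too.

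Hey1 (ENSMUSG00000040289, chr3:8663359-8667256, minus strand) and Heyl (ENSMUSG00000032744, chr4:123233556-123249875, plus strand), repressors of the Hey family, were low. Hey1 was measured at 0, 6.14 and 2.57 CPM in Gli1+ and at 1.5, 4.71 and 1.69 CPM in Gli1-. Heyl was measured at 1.16, 3.93 and 1.73 CPM in Gli1+ and at 2.02, 2.45 and 1.64 CPM in Gli1-. Both overlapped between populations and were highest in the replicate 2 libraries. Their log2FC was 0.14 ± 1.37 and 0.16 ± 0.74 (SE, edgeR adjusted p = 0.9999 for each), and with the block the signs turned, to -0.73 and to -0.0019. Both were lower in Gli1+ in pair 1, where Hey1 had a count of 0. In pairs 2 and 3 both were higher, Hey1 by 1.30-fold and 1.52-fold and Heyl by 1.60-fold and 1.06-fold. Without the first Gli1+ library the log2FC without a block was 0.71 for Hey1 and 0.45 for Heyl. Of the summed target level per kb, Hes1 took 92.4% to 95.7% in Gli1+ and 95.2% to 96.9% in Gli1-, and the populations overlapped (two-sided exact permutation p = 0.2). As a share of the counts, without division by length, Hes1 took 86.6% to 90.2% in Gli1+ and 90.7% to 94.4% in Gli1-, with no overlap and lower in Gli1+ in all 3 pairs (two-sided exact permutation p = 0.1). The difference of the means was -2.04 percentage points per kb and -4.05 by counts.

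The replicate number moved several members further than the population did, a pattern picked out after the values were seen. Notch1 and Notch2 were lower in both replicate 2 libraries than in all other 4, as were 22.8% of the genes tested and 46.4% of those of 10000 bases or more. Hes1, Hey1 and Heyl were higher in both than in the other 4, as were 25.1% of the genes. In the edgeR fit with the block, the unadjusted p of the replicate number was 0.000256 for Notch1, 0.00165 for Notch2 and 0.0040 for Hes1. The adjusted p ran from 0.0863 to 0.0883, and 0 genes passed 0.05. The ratio of Hes1 to Notch2 per kb was 8.39 and 11 in the replicate 2 libraries and 0.104 to 0.705 in the other 4.

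Gene length ran along with this pattern. In the longest eighth of the genes, from 8758 bases, the median deviation from the mean of the 6 libraries was -0.46 and -0.45 on the log2 scale in the replicate 2 libraries of Gli1+ and Gli1-, and in the shortest eighth it was 0.78 and 0.66. The first Gli1+ library had the opposite slope, with 0.70 and -1.01. Notch1 (14232 bases) deviated by -1.90 and -1.80 in the replicate 2 libraries and Notch2 (10782 bases) by -1.75 in each. With the length trend taken out, both genes still deviated by -1.30 to -1.36 there, and the adjusted p of the replicate number was 0.0603 for Notch1, 0.0593 for Notch2 and 0.0662 for Hes1 (edgeR with the length correction). Genes of ribosomal proteins took 13.2% and 10.4% of the reads in the replicate 2 libraries and 2.86% to 4.43% in the others. The 10 chondrocyte markers summed to 20109 and 26392 CPM in the replicate 2 libraries of Gli1+ and Gli1-, and to 6309 to 8237 CPM in the others. The part of these library differences in the member values beyond the length trend was not tested.

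**Figure D4:**
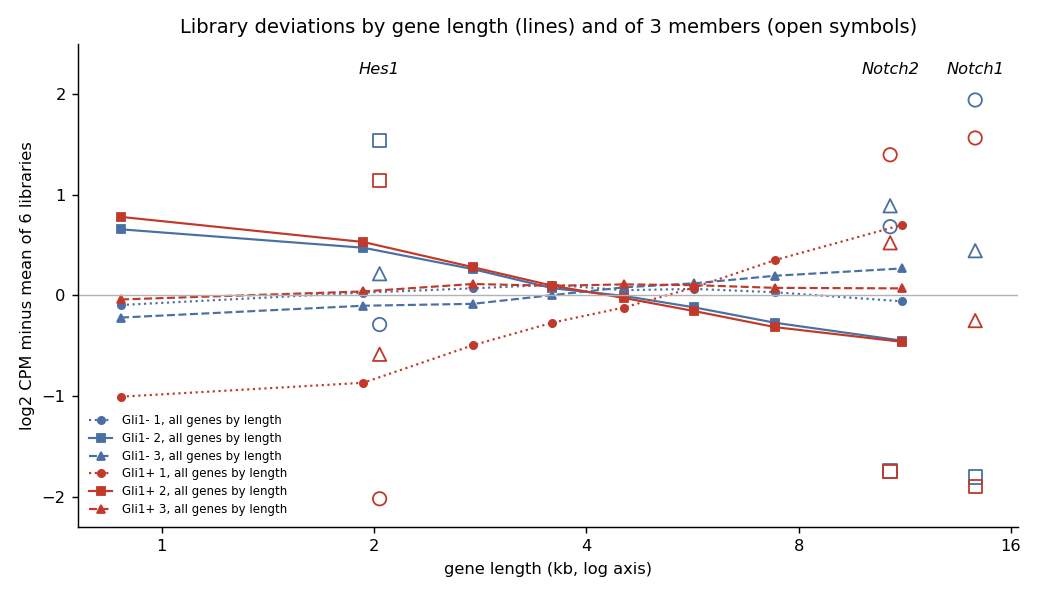
Deviation of each library from the mean of the 6 (vertical axis, log2 CPM) against gene length (horizontal axis, kb, log scale), as the median of 8 length classes (lines) and for Notch1, Notch2 and Hes1 (open symbols); Gli1+ is red, Gli1- blue, and circles, squares and triangles are replicates 1, 2 and 3. The squares of replicate 2 lie at -1.75 to -1.90 for the 2 long receptors and at 1.14 and 1.54 for the short Hes1, beyond the lines in both cases.

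A wider list of 50 other Notch pathway genes, ordered by role, was read for the same comparison. Of these, 42 passed the filter, 0 were called and 0 had an unadjusted p under 0.05 (edgeR; 0 called by DESeq2 with the block). The log2FC was above 0 for 20 and below for 22, with a median of -0.03. In all 3 numbered pairs 3 were higher and 9 lower in Gli1+, against 17.6% and 19.8% of all genes. Among the 42 tested, 0 had populations without overlap.

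The best expressed gene of each role, by level per kb, shows the machinery around the receptors. Dlk1, a non-canonical ligand of the Delta-like kind, was at 35.9, 104 and 48.5 CPM in Gli1+ and at 106, 140 and 51.1 CPM in Gli1-, lower in Gli1+ in every pair with a log2FC of -0.66 ± 0.55. Mib1, the ubiquitin ligase that drives ligand endocytosis in the signal-sending cell, was at 206, 37.4 and 112 CPM against 85.5, 28.6 and 116 CPM, with a log2FC of 0.63 ± 0.71 (0.40 ± 0.51 with the gene length correction). The populations overlapped for both. The 4 genes of ligand endocytosis had log2FC values of 0.09 to 1.04, and 0 of them were higher in Gli1+ in all 3 pairs.

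On the receptor side, Poglut1, which adds glucose to the extracellular repeats of Notch, was at 40.5, 23.1 and 28.0 CPM in Gli1+ and at 28.9, 18.2 and 21.9 CPM in Gli1-. It was higher in Gli1+ in each pair, with a log2FC of 0.41 ± 0.42. Psenen, a subunit of the gamma-secretase that releases the intracellular domain, was at 17.1, 84.7 and 24.8 CPM against 35.5, 101 and 31.9 CPM, with a log2FC of -0.41 ± 0.72. It was lower in Gli1+ in each pair and highest in replicate 2. With 1275 bases Psenen belonged to the shortest eighth of the genes. Their median deviation was also highest in replicate 2 and lowest in the first Gli1+ library. Dtx3, of the Deltex ubiquitin ligases, was at 7.51, 73.0 and 62.7 CPM against 47.6, 118 and 80.3 CPM, with a log2FC of -0.78 ± 0.76, and was also lower in each pair. With the gene length correction the log2FC was -0.35 for Psenen and -0.82 for Dtx3.

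In the nucleus, Maml1, a Mastermind coactivator, was at 82.4, 66.8 and 84.8 CPM in Gli1+ and at 138, 77.7 and 138 CPM in Gli1-, with a log2FC of -0.60 ± 0.40 (edgeR adjusted p = 0.9999, as for the other genes of the list). It too was lower in each pair. The corepressor Ctbp1 was at 114, 136 and 163 CPM against 174, 116 and 134 CPM, without one direction over the pairs. Of the 4 further targets, Hes7 had the highest level per kb, with at most 0.597 CPM in any library, and was not tested. Hey2 was the 1 that passed the filter. Its log2FC was 0.15, and -0.55 with the block, and it was not called.

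**Figure D5:**
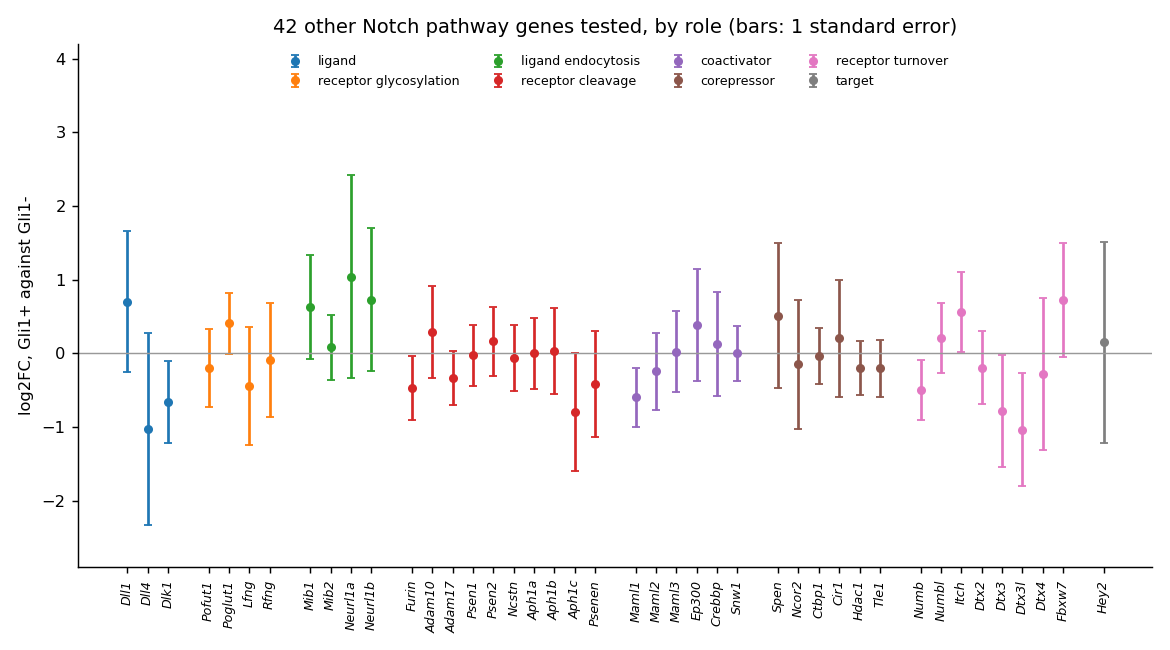
Log2FC of Gli1+ against Gli1- (vertical axis, edgeR without a block) for the 42 tested genes of the wider Notch list (horizontal axis, colored by role); bars give 1 standard error. The values scatter around 0, with 20 genes above and 22 below and a median of -0.03.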

How the data were processed

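RNA was taken from sorted CD45-CD31-Ter119- cells, made into poly-T selected mRNA libraries and sequenced for the study by Novogene. The deposited table holds raw counts per gene and library, which the authors did not normalize or pool. The submitters' processing notes name HISAT2 2.0.5, featureCounts 1.5.0-p3 and the mm10 genome, and a strand setting is not given in the sources used here. Exons of 3 members (Notch1, Notch2 and Notch3) overlap those of other genes in GENCODE M21, so their counts may hold reads of a neighbor. File coordinates matched that annotation for 9 of the 10 members.

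Counts were tested with edgeR 4.0.16 (R 4.3.3): genes kept by filterByExpr with a minimum count of 10, TMM normalization, the quasi-likelihood test of Gli1+ against Gli1-, and Benjamini-Hochberg adjustment over all 14801 genes. A call needed an adjusted p under 0.05 and a log2FC beyond 1. SE is the log2FC divided by the square root of F. DESeq2 1.42.0, limma-voom 3.58.1, other normalizations and filters, a replicate block and leaving out each library were alternatives. A gene length correction (lowess, span 0.3) and leaving out both libraries numbered 1 were added after the data were seen. Scripts were tested on simulated data. Figures were drawn with matplotlib 3.10.9.

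Groups came from the sample titles. The titles do not say what a replicate number marks, nor whether replicates are separate mice. According to the paper, the Gli1+ and Gli1- cells shared their source animals, and the replicates within a group were biological. It does not link a replicate number to an animal, so pairing by number was inferred here. The p-values measure the spread between these samples. After removal of the population means, libraries numbered 1, 2 and 3 correlated between populations over genes with r of 0.223, 0.720 and 0.471. All were over 0.1 and the numbers were taken to pair the samples, though the first Gli1+ library correlated slightly more with the third Gli1- library (0.274). The third Gli1+ library and the first Gli1- library were over 0.1 as well (0.107), so that threshold did not separate matched from unmatched numbers. No replicates were identical (r of 0.786 to 0.929).

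The members and gene lists were chosen with earlier results of these data known. Wider pathway genes were named as the one with the highest mean CPM per kb in each role, and Hey2 as the only further target tested. Limits from counts of 0 used 3 counts and cover counting error only.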

Additional observations from a re-analysis of the deposited data

How the results depend on the processing

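Counts of genes called moved from 0 to 267 (20 higher in Gli1+) with no filter on low counts, 30 (15 higher) with DESeq2, 428 (115 higher) with DESeq2 and the replicate block, and 1201 (485 higher) with the block and both libraries numbered 1 left out, a choice made after seeing the data that leaves 1 residual degree of freedom. Members called moved from 0 to 1, Jag1, in the DESeq2 fit with the replicate block. With the block and both libraries numbered 1 left out, 3 members passed an adjusted p of 0.05 without reaching a log2FC of 1 in size: Jag1 (0.96, adjusted p = 0.000154), Rbpj (-0.69, adjusted p = 0.00987) and Hes1 (-0.60, adjusted p = 0.0295). By the full criterion 0 members were called there, beside 1201 of 15331 genes. The share of all genes passing the adjusted p alone was not counted, so the 3 have no background to be read against. In that edgeR fit, 2 genes of the wider list were called, Neurl1a (log2FC 1.45) and Dlk2 (2.42). Members without overlap between populations were 2, Notch3 and Notch4. They were 1 by library totals alone, and 2 to 4 when 1 library was left out, the 4 coming without the second Gli1+ library, when Jag1 and Hes1 joined them. With fewer libraries a lack of overlap is easier to reach, and the share of all genes without overlap was not counted in those settings.

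The log2FC of low or variable members changed sign. Hey1 moved to -1.67 with limma-voom, -0.73 with the edgeR replicate block, -0.91 with DESeq2 and the block and -0.69 with the block and gene length. Heyl moved to -0.031 with limma-voom, -0.0019 with the block and -0.014 with DESeq2 and the block. Notch2 moved to -0.047 and -0.033 with gene length without and with the block, and to -0.32 and -0.20 without both libraries numbered 1, without and with the block. With 1 library left out, Notch1 ranged from -1.77 to 0.71, Notch2 from -0.56 to 0.69, Rbpj from -0.64 to 0.042, Hes1 from -1.85 to 0.055, Hey1 from -1.03 to 0.84 and Heyl from -0.50 to 0.45. Jag1, Jag2 and Notch3 kept their sign under the alternatives run, though Jag2 ran from -3.65 to -0.77. Shares by counts in place of per kb moved the difference in means of Hes1 among targets from -2.04 to -4.05 percentage points and that of Heyl from 1.31 to 3.01. The causes were not tested. With 3 libraries a population and members at under 100 counts (Notch3, Notch4, Jag2 and Heyl), depth and replicate spread limit what the comparison can show.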

Other observations

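Several Notch genes that are targets or feedback regulators elsewhere were hardly measured in these cells. Hes5 had a level above 0 in 1 of 6 libraries, at 0.0517 CPM in the first Gli1- library. Nrarp, a feedback inhibitor that binds the Notch intracellular domain, was at 0 in all 3 Gli1+ libraries and at 0, 0.332 and 0.0529 CPM in the Gli1- libraries. The Fringe gene Mfng, whose product lengthens sugars on Notch receptors, was at 0 in all 3 Gli1+ libraries and at 0.259, 0 and 0.106 CPM in Gli1-. Its relatives Lfng and Rfng were measured at 2.12 to 23.5 and 2.46 to 12.7 CPM over the 6 libraries.

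Dlk2, a relative of Dlk1 picked out after its values were seen, was at 0, 1.97 and 2.15 CPM in Gli1+ and at 0.310, 0.332 and 0.423 CPM in Gli1-. The first Gli1+ library was below all Gli1- libraries and the other 2 were above them. Among Delta-like ligands, Dll1 was at 0.635, 7.55 and 1.52 CPM in Gli1+ and at 1.60, 2.65 and 1.69 CPM in Gli1-, and its populations overlapped.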
